A study of Mus musculus and Rattus norvegicus with 12 samples.

Results

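Neonatal rat ventricular cardiomyocytes given a small interfering RNA (siRNA) against Jmjd4 were compared with the same cells given a control siRNA, in all genes of the count table. The 6 libraries of this experiment were chosen by their labels, from 12 libraries in the series, and fall into a siNC group (n = 3, control siRNA, labelled wild type) and a siJmjd4 group (n = 3, siRNA against Jmjd4, labelled as a knockdown). Every library came from ventricles of 1-day-old Sprague-Dawley rats. The cells were freed with trypsin and collagenase, kept for a time in uncoated dishes that take up the faster-attaching cells, and harvested after 48 h of siRNA. The labels do not say whether replicates were separate isolations, so p-values measure only the spread between these libraries, which may be technical. They also do not say whether 1 siRNA or several were used, and with a single siRNA group the effect of losing Jmjd4 and other effects of that siRNA cannot be told apart.

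JMJD4 is a 2-oxoglutarate and iron dependent oxygenase of the JmjC family. It is known for hydroxylating eRF1, the protein encoded by Etf1 that recognises stop codons and ends translation. The title of the series names PKM2, a splice form of pyruvate kinase encoded by Pkm, and a form of cardiomyopathy in which the heart dilates and contracts weakly. Neonatal ventricular cardiomyocytes still beat in culture and express a fetal gene programme, and such cultures usually hold fibroblasts and other cells of the heart as well.

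The libraries held 57174654 to 82187009 counts over 28909 gene symbols, and 15497 genes passed the filter on low counts. Levels are given as CPM, each count relative to the scaled total of its library. One control library stood apart. In siNC replicate 3, the shortest 20% of genes stood at a median log2 ratio of 0.65 to the other control libraries and the longest 20% at -0.67, with transcript lengths taken from mouse genes with the same symbol. Its level relative to the rest of its group had a Spearman correlation with length of -0.49 across genes, which are not independent replicates. The values were 0.50 and 0.40 in the other control libraries and -0.39, 0.05 and 0.37 in the siJmjd4 libraries. For the other control libraries the reference includes siNC replicate 3, so their values partly mirror its trend. The library siNC replicate 3 also held 461 tested genes at 0, against 78 to 137 in each of the others. For this reason 3 fits are used below, over all 6 libraries, without siNC replicate 3, and without siNC replicate 3 with an offset for transcript length.

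Markers of cardiomyocytes were present in every library, and so were those of fibroblasts. The 21 tested cardiomyocyte markers summed to 24515 to 36470 CPM in siNC and 19064 to 23666 CPM in siJmjd4, and these ranges did not overlap. The 15 fibroblast markers summed to 36959 to 44793 CPM and 43523 to 50158 CPM, with siNC replicate 3 lowest, and siNC replicate 1 lay above siJmjd4 replicate 1. Col1a1, a chain of type I collagen, alone stood at 23304, 21678 and 23781 CPM in siNC and 21808, 23135 and 25966 CPM in siJmjd4. Sums of markers of smooth muscle and pericytes were 8852 to 14127 CPM in siNC and 8409 to 8858 CPM in siJmjd4. Endothelial markers summed to 576 to 830 and 517 to 577 CPM, macrophage and leukocyte markers to 434 to 617 and 434 to 486 CPM, and epicardial markers to 137 to 148 and 135 to 146 CPM. Markers of Schwann cells and neurons summed to 118 to 183 and 112 to 119 CPM. Red cell markers were near 0, at 0.892 to 2.68 CPM in all libraries, with 3 of their listed genes passing the filter. In such bulk samples, fewer cells of a type and less RNA per cell cannot be told apart.

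**Figure D1:**
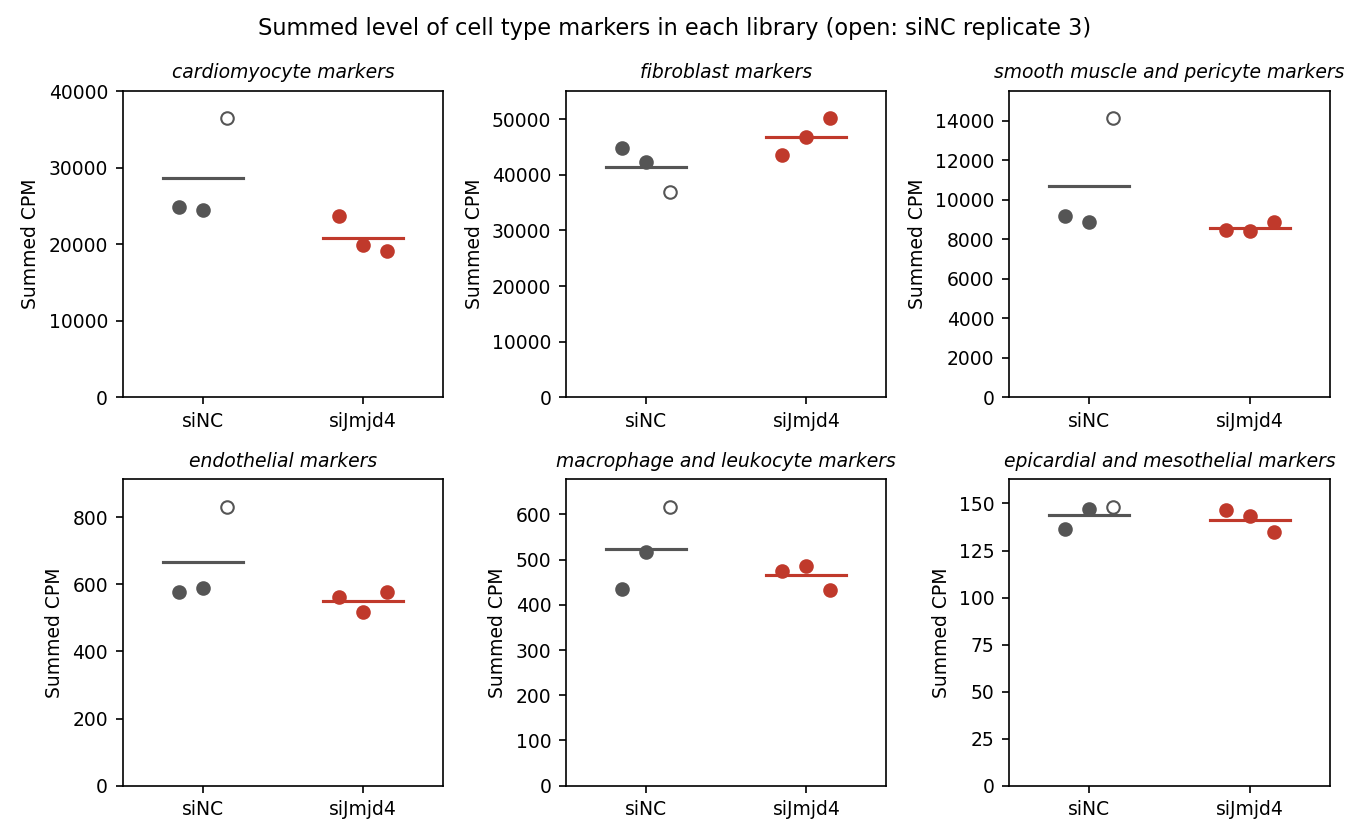
Summed CPM of 6 marker lists (vertical axes, starting at 0) in each siNC and siJmjd4 library, with the group mean as a line and siNC replicate 3 as an open circle. Cardiomyocyte marker sums of the siJmjd4 libraries, 19064 to 23666 CPM, lie below every siNC library, and siNC replicate 3 is the highest library of the cardiomyocyte panel.

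Jmjd4, the targeted gene, did not differ between the groups in these counts. It was measured at 3.46, 4.40 and 0.982 CPM in siNC replicates 1 to 3 and at 3.58, 3.43 and 3.53 CPM in siJmjd4. The siJmjd4 libraries lay within the range of the controls, and the lowest library of all was siNC replicate 3. Relative to siNC, its log2 fold change was 0.25 ± 0.52 (SE) over 6 libraries (edgeR's quasi-likelihood test, Benjamini-Hochberg adjusted p = 0.770), with a 95% interval of 49.8% to 284% of the control level. Without siNC replicate 3 it was -0.16 ± 0.21 (edgeR adjusted p = 0.685), an interval of 64.6% to 124% of the control level. The lowering of Jmjd4 that the label names was thus not seen at the RNA level, and each direction below is one between libraries labelled siJmjd4 and siNC. Snap47, a SNARE protein gene that neighbours Jmjd4 in mammals, stood at 11.8, 13.9 and 22.2 CPM in siNC and 12.4, 12.5 and 11.3 CPM in siJmjd4, without a call (edgeR adjusted p = 0.402 over 6 libraries).

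Neither Etf1 nor any other tested gene of translation termination and decoding was called over 6 libraries or without siNC replicate 3. Etf1 was at 115, 119 and 115 CPM in siNC and 119, 130 and 133 CPM in siJmjd4. The siJmjd4 libraries were all above the controls, but by a log2 fold change of only 0.13, which was not called (edgeR adjusted p = 0.520). The 20 tested genes of translation termination and decoding had median log2 fold changes of 0.07 (6 libraries) and 0.01 (without siNC replicate 3), beside 0.01 and 0.00 over all genes tested. Pkm, the source of PKM1 and PKM2 by alternative splicing, was at 965, 1039 and 1340 CPM in siNC and 920, 906 and 1017 CPM in siJmjd4. The groups overlapped, and without siNC replicate 3 the siJmjd4 level had a 95% interval of 84.4% to 106% of control (edgeR adjusted p = 0.550). Counts per gene hold both splice forms together, so PKM2 on its own was not measured. Among the 38 tested JmjC and other 2-oxoglutarate oxygenases, the enzyme family to which JMJD4 belongs, edgeR called 0 over 6 libraries (3 higher and 0 lower at an unadjusted p under 0.05) and 0 without siNC replicate 3 (15 and 0). Over all genes the shares higher at that p were 5.79% and 15.8%. With the length offset 7 were higher and 7 lower at that p, where 13.3% of all genes were lower. In that fit 1 was called in each direction, beside 1.78% of all genes called higher and 2.39% lower. The median was -0.03, beside -0.04 over all genes. With siNC replicate 3 and siJmjd4 replicate 1 left out, without the offset, 10 of the 38 were called higher and 1 lower. The shares over all genes there were 10.6% and 5.18%. Hif1an, the oxygenase that hydroxylates the hypoxia factor HIF-1, was at 10.1, 7.66 and 6.15 CPM in siNC and 9.67, 13.8 and 12.2 CPM in siJmjd4.

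**Figure D2:**
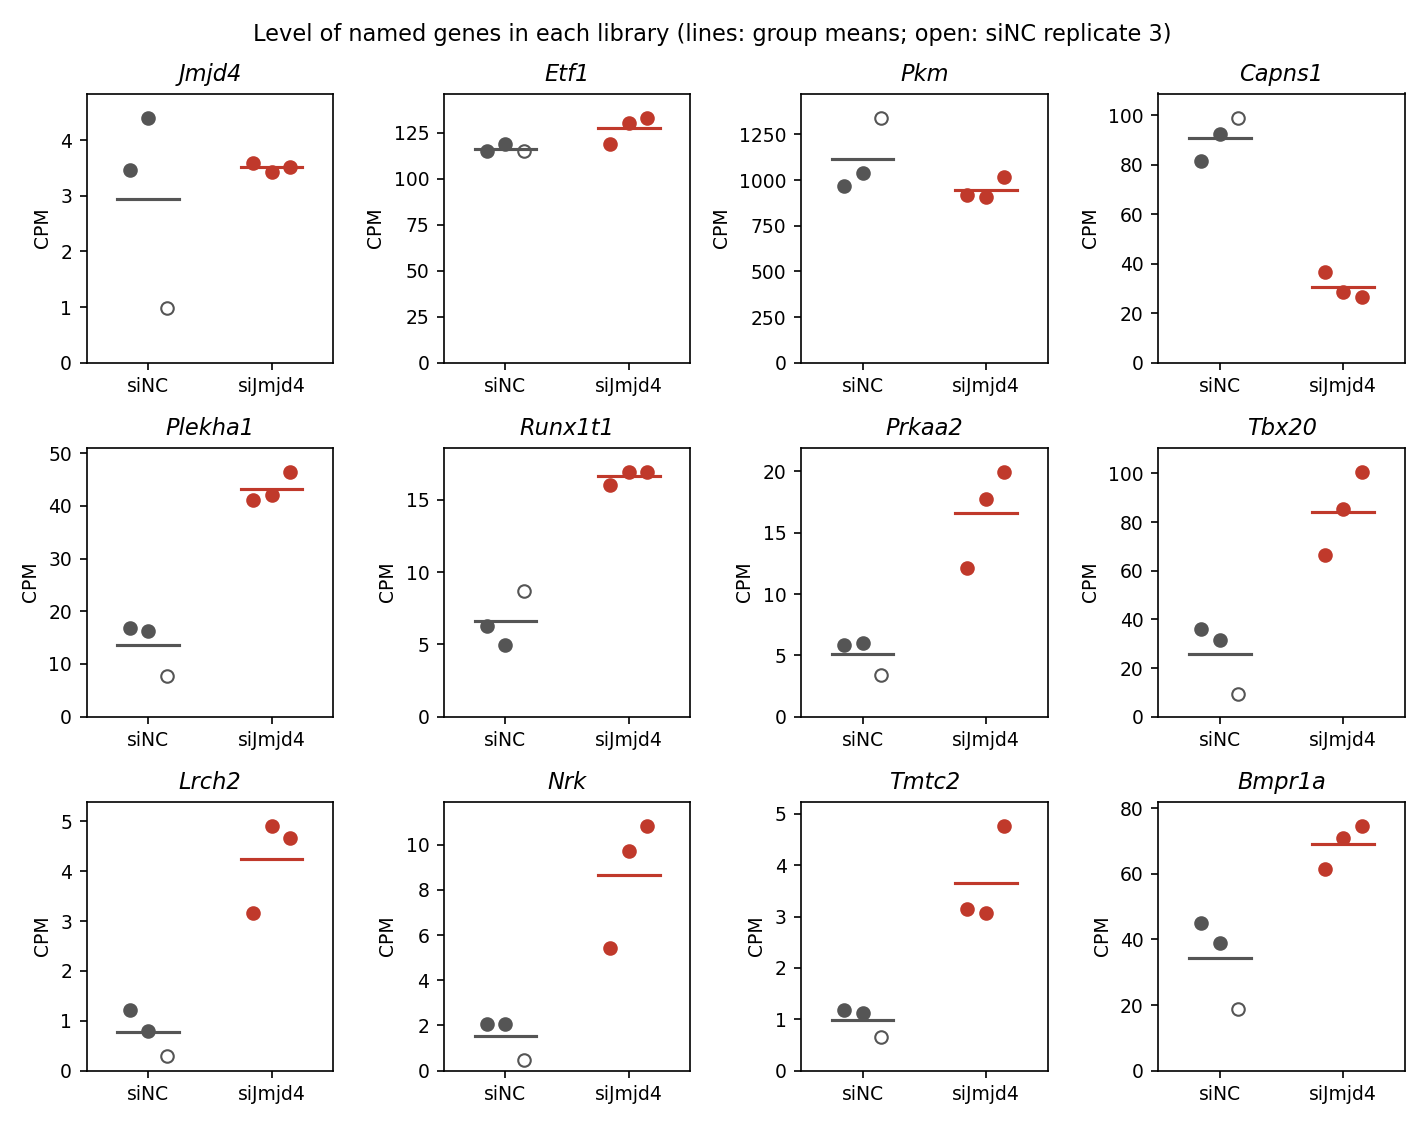
Level (CPM, vertical axes starting at 0) of 12 genes in each library, with the group mean as a line and siNC replicate 3 as an open circle. Jmjd4 in siJmjd4, 3.43 to 3.58 CPM, lies within the control range, Capns1 is lower in every siJmjd4 library, and Plekha1, Runx1t1, Prkaa2, Tbx20, Lrch2, Nrk, Tmtc2 and Bmpr1a are higher in every siJmjd4 library.

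Over all 6 libraries, 1 gene was called at an adjusted p under 0.05 (edgeR's quasi-likelihood test), which is 0.00645% of the 15497 tested. It was higher in siJmjd4, and 0 genes were called lower. At an unadjusted p under 0.05 there were 1350 genes (8.71%), of which 897 were higher (5.79%) and 453 lower (2.92%). DESeq2's Wald test on the same 6 libraries called 168 genes (1.08%), 136 higher (0.878%) and 32 lower (0.206%), and limma voom with quality weights called 1148. Groups that did not overlap were frequent, in 6231 genes (40.2% of those tested).

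The called gene was Myh9l1, annotated as similar to Myh9, the gene of the non-muscle myosin heavy chain IIA. It had 0 counts in all 3 siNC libraries and 67959, 53244 and 69681 counts in siJmjd4. That is at least 17007-fold higher (a floor of 3 counts per library, counting error only, edgeR adjusted p = 0.00434). Myh9l1 stood at nearly the same share of the Myh9 level in each siJmjd4 library, 57.4%, 56.8% and 55.7%. Myh9 itself was at 1211, 1246 and 671 CPM in siNC and 1369, 1495 and 1742 CPM in siJmjd4. Its log2 fold change was 0.56 over 6 libraries and 0.32 without siNC replicate 3. With an offset for transcript length these were -0.13 and -0.10, so the direction of Myh9 depended on the fit. The sum of Myh9 and Myh9l1 was 1211, 1246 and 671 CPM against 2154, 2344 and 2713 CPM. The sources used here do not say whether reads of the pair can be told apart, and the level of Myh9l1 is uncertain for that reason.

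Myh9l1 was 1 of 102 tested genes with 0 counts in at least 1 library and at least 5 CPM in another. Such jumps occurred in every library: 25, 24 and 45 of the 102 were at 0 in siNC replicates 1, 2 and 3, and 22, 23 and 18 in siJmjd4 replicates 1, 2 and 3. In 28 genes the only library at 0 was siNC replicate 3, and 24 genes were at 0 in libraries of both groups. Hsp90aa1, the gene of the inducible cytosolic HSP90 chaperone, shows the pattern at a high level. Its counts were 0, 11761 and 0 in siNC and 16184, 0 and 17118 in siJmjd4, a split that does not follow the groups. Map3k7, the gene of the kinase TAK1 in TGF-beta and inflammatory signalling, had 1975, 0 and 36 counts in siNC and 3153, 2270 and 3102 in siJmjd4. Both were chosen after their values were seen. How the deposited counting treated reads of these genes was not tested.

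Apart from Myh9l1, 1 gene of the 102 was at 0 in every library of a group. Cracr2b, the gene of an EF-hand protein that regulates store-operated calcium entry, had 331, 340 and 537 counts in siNC and 0 in each siJmjd4 library. The fall was at least 168-fold on the floor of 3 counts (edgeR adjusted p = 0.257 over 6 libraries and 0.00069 without siNC replicate 3). Of the other 4 genes that led this set by p, 1 separated the groups. LOC108348118 had 0, 0 and 13 counts in siNC and 319, 385 and 591 in siJmjd4, and was called higher without siNC replicate 3 (edgeR adjusted p = 0.00428) but not over 6 libraries (0.379). The groups overlapped in the remaining 3. RGD1305298 had 4189 counts in siNC replicate 3 and 0 to 22 in each other library. LOC103689961 had 633, 1184 and 2124 counts in siNC and 917, 165 and 0 in siJmjd4. Tmco3 had 463 counts in siNC replicate 1 and at most 25 elsewhere. Nhp2, a protein of the H/ACA ribonucleoprotein, is a case where the control library left out decides the call. It had 0, 0 and 3309 counts in siNC and 1980, 1511 and 1556 in siJmjd4, and was called higher without siNC replicate 3 (edgeR adjusted p = 1.889e-06) but not with it (0.972).

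**Figure D3:**
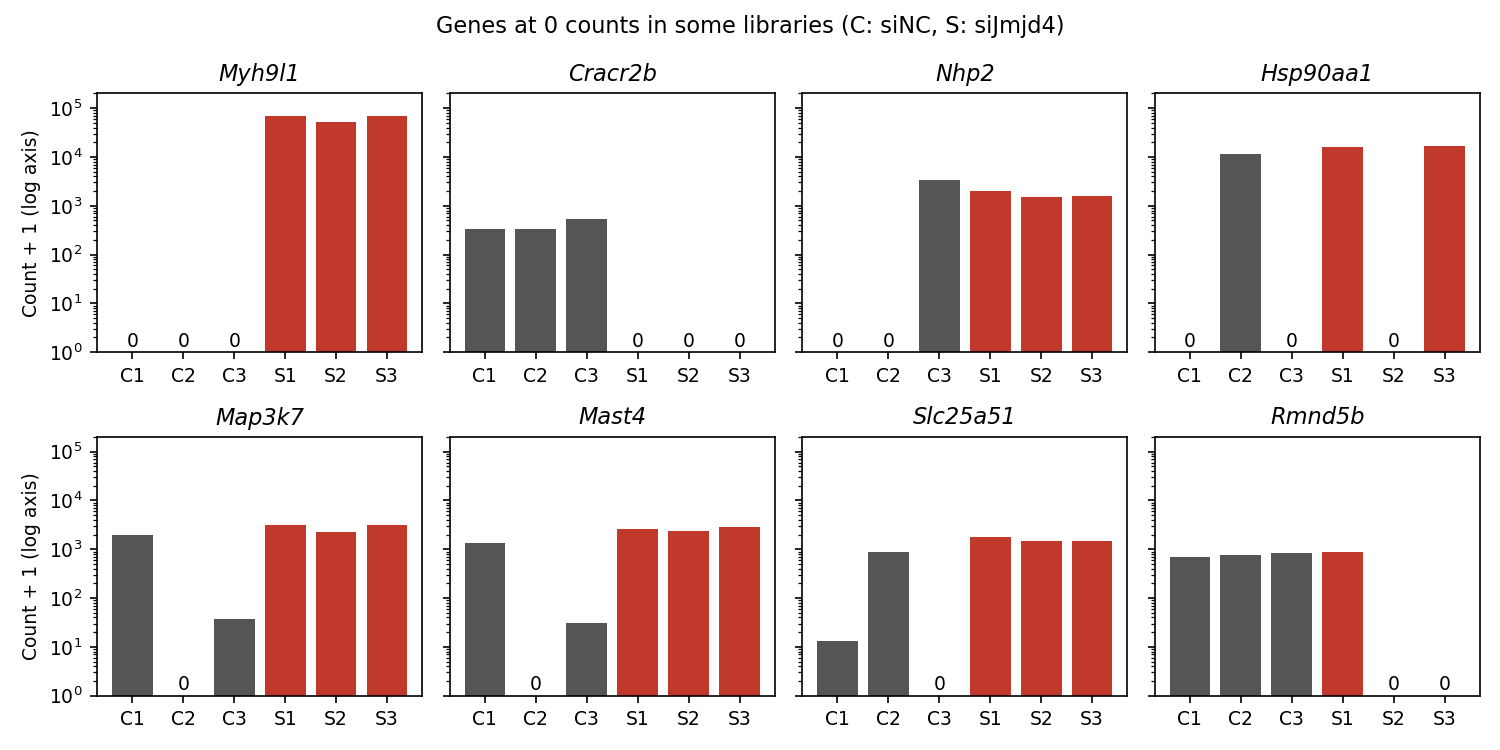
Counts plus 1 (log axis) of 8 genes at 0 in some libraries, for siNC (C1 to C3) and siJmjd4 (S1 to S3), with a 0 written where the count is 0. Myh9l1 and Cracr2b follow the groups, while Hsp90aa1 is at 0 in C1, C3 and S2, and Nhp2 in C1 and C2. Mast4, Slc25a51 and Rmnd5b, like Map3k7, were picked after their values were seen.

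Without siNC replicate 3, 90 of 15798 genes were called (0.57%, edgeR's quasi-likelihood test), 77 higher (0.487%) and 13 lower (0.0823%) in siJmjd4. At an unadjusted p under 0.05 there were 3772 genes (23.9%), with 2494 higher (15.8%) and 1278 lower (8.09%). The library left out had been chosen for its length trend, and the remaining control group holds 2 libraries. Of the called genes, 74 of the 77 higher and 12 of the 13 lower did not overlap between the groups over all 6 libraries, beside 40.2% of all genes. The calls were made from the same libraries apart from siNC replicate 3. Most of this separation was therefore set by the choice of genes and is no further support for them. The calls depended on further libraries too: 20 genes were called when siJmjd4 replicate 2 was also left out, and 2470 (15.8%) when siJmjd4 replicate 1 was. All 90 were among those 2470. The 2 fits use the same libraries apart from siJmjd4 replicate 1, so this is no further support for the 90. Calls in the gene lists below are those of the 3 fits, unless the fit without siNC replicate 3 and siJmjd4 replicate 1 is named. That fit has no length offset, and its fold changes had a Spearman correlation with transcript length of 0.51 across genes. Its median lengths were 6162 bases for genes called higher and 1969 bases for those called lower, against 3449 bases over all genes.

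Called genes were long where they were higher. Their median transcript length was 6128 bases over the 64 with a length, against 3444 bases over all genes. The fold change itself was larger in longer genes, from a median of -0.57 in the shortest 10% of genes to 0.66 in the longest 10% over 6 libraries, and from -0.19 to 0.41 without siNC replicate 3. The Spearman correlation across genes was 0.57 and 0.50. With an offset for each library's own length trend it was -0.06 without siNC replicate 3, where 543 of 13005 genes with a length were called (4.18%), 232 higher (1.78%) and 311 lower (2.39%). Genes called with the offset were still long in both directions. Their median lengths were 5038 bases (higher) and 6110 bases (lower), against 3444 bases over all genes. Over 6 libraries with that offset edgeR called 0 of 12825 genes, with 1304 (10.2%) at an unadjusted p under 0.05. The offset also takes out any true difference between the groups that follows length. Of the 77 higher genes 64 could be tested with the offset and 50 were called again, as were all 3 of the lower genes with a length (Capns1, Cracr2b and Zfp647). Of the 311 called lower with the offset, 80 had a log2 fold change above 0 without it, and for those the offset sets the direction.

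**Figure D4:**
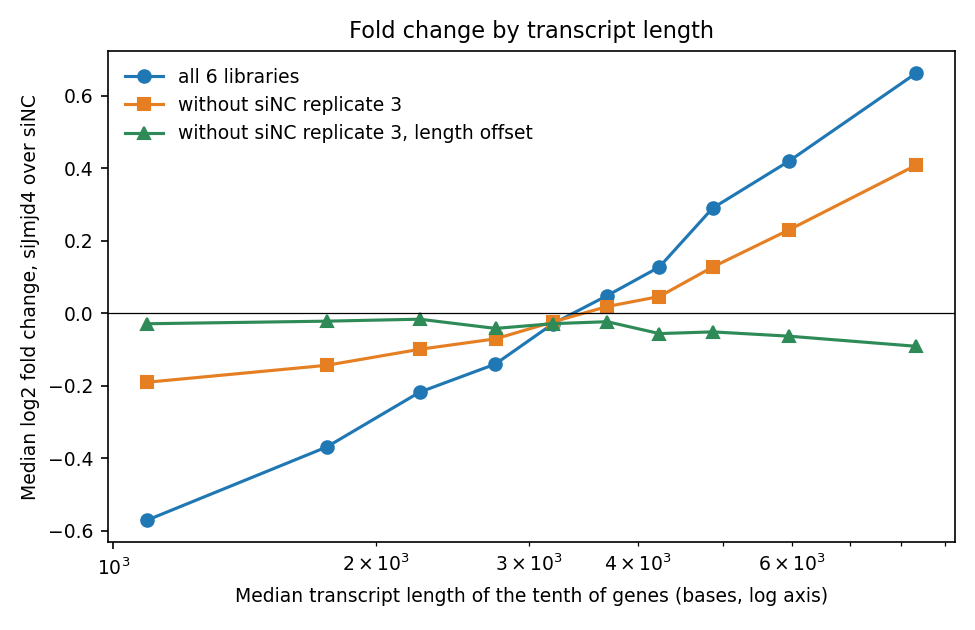
Median log2 fold change of siJmjd4 over siNC (vertical axis) in 10 groups of genes ordered by transcript length (horizontal axis, bases, log scale), for 3 fits. The median goes from -0.57 to 0.66 over 6 libraries and from -0.19 to 0.41 without siNC replicate 3, and stays between -0.09 and -0.02 with the length offset.

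Capns1, the gene of the small regulatory subunit shared by calpains 1 and 2, calcium-dependent proteases, gave the largest decrease among called genes with counts in every library. It was at 81.6, 92.4 and 99.0 CPM in siNC and 36.6, 28.7 and 26.7 CPM in siJmjd4. The groups were far apart, and siNC replicate 3 lay with its group. Its log2 fold change over 6 libraries was -1.57 ± 0.18 (SE). The unadjusted p was 7.685e-05, which did not pass adjustment (edgeR adjusted p = 0.298). Without siNC replicate 3 Capns1 fell by 1.502 on the log2 scale (SE 0.14, edgeR adjusted p = 0.00597), and with the length offset by 1.37 (adjusted p = 0.000406). DESeq2's Wald test called it over 6 libraries as well (adjusted p = 2.905e-11). Capns1 was not alone in this: that test called 21 of the 77 higher genes and 12 of the 13 lower ones. Plekha1, Runx1t1, Prkaa2, Tp53inp1, Lrch2, Nrk, Tmtc2 and Nr2c2 were among them, while Tbx20, Fam126a, Itpr2 and Cnnm4 were not. Where a gene below is said not to be called over 6 libraries, edgeR is meant.

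Plekha1, a phosphoinositide-binding adaptor also called TAPP1, had the smallest adjusted p among higher genes with counts in every library. It was at 16.9, 16.3 and 7.63 CPM in siNC and 41.0, 42.1 and 46.4 CPM in siJmjd4, and rose by 1.38 on the log2 scale without siNC replicate 3 (SE 0.10, edgeR adjusted p = 0.00124) and by 1.33 with the offset (adjusted p = 0.0001175). Over 6 libraries its log2 fold change was 1.66 (edgeR adjusted p = 0.379). Runx1t1, a transcriptional corepressor, was the 1 gene among the 12 higher genes named by the rule in which siNC replicate 3 was the highest control. Its levels were 6.28, 4.99 and 8.67 CPM in siNC and 16.02, 16.91 and 16.93 CPM in siJmjd4. It rose by 1.56 on the log2 scale without siNC replicate 3 (edgeR adjusted p = 0.00554) and by 1.26 with the offset (adjusted p = 0.00513). Over 6 libraries its log2 fold change of 1.32 was not called (edgeR adjusted p = 0.379). With the offset over 6 libraries it was 0.61 ± 0.42 (SE), also without a call (edgeR adjusted p = 0.436).

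Prkaa2 and Tbx20 were also higher in every siJmjd4 library than in any control, and the naming rule required groups without overlap. Prkaa2 encodes a catalytic subunit of AMPK, the kinase that senses low energy. It was at 5.86, 5.99 and 3.38 CPM in siNC and 12.15, 17.74 and 19.95 CPM in siJmjd4, with a log2 fold change of 1.49 without siNC replicate 3 (edgeR adjusted p = 0.0359) and 1.01 with the offset (adjusted p = 0.0257). Tbx20, a T-box transcription factor of heart development, was at 36.0, 31.6 and 9.25 CPM in siNC and 66.4, 85.6 and 101 CPM in siJmjd4. Its log2 fold change was 1.32 (edgeR adjusted p = 0.0489), and 0.79 with the offset (adjusted p = 0.00276). Over 6 libraries Prkaa2 and Tbx20 had log2 fold changes of 1.71 and 1.72 and were not called (edgeR adjusted p = 0.379 for each). Of the 26 tested cardiac transcription factors Tbx20 was the only call without siNC replicate 3, beside 0.487% of all genes called higher. The list's median was 0.00 there and -0.13 with the offset. Tp53inp1, a p53-induced gene that also acts in autophagy, was at 2.66, 2.53 and 1.34 CPM in siNC and 6.09, 7.28 and 8.42 CPM in siJmjd4 (log2 fold change 1.48 without siNC replicate 3, edgeR adjusted p = 0.0359, and 1.74 over 6 libraries, adjusted p = 0.379), and has no length here.

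Among genes with counts in every library and no predicted name, the largest increases without siNC replicate 3 were in genes at a low level. Lrch2, a leucine-rich repeat protein, was at 1.22, 0.787 and 0.302 CPM in siNC and 3.16, 4.91 and 4.67 CPM in siJmjd4 (log2 fold change 2.08, edgeR adjusted p = 0.0409). The kinase gene Nrk was at 2.06, 2.07 and 0.453 CPM and 5.41, 9.74 and 10.8 CPM (log2 fold change 2.07, edgeR adjusted p = 0.0409). Tmtc2, an endoplasmic reticulum protein, was at 1.17, 1.13 and 0.661 CPM and 3.14, 3.08 and 4.77 CPM. In each of the 3 the groups did not overlap, which the naming rule required, and each was called again with the offset. Over 6 libraries Lrch2, Nrk and Tmtc2 had log2 fold changes of 2.46, 2.50 and 1.89 and were not called (edgeR adjusted p = 0.379 for each). Fam126a, Itpr2, Nr2c2 and Cnnm4 had log2 fold changes of 1.53, 1.32, 1.301 and 1.28 without siNC replicate 3, and of 1.27, 0.70, 0.85 and 1.14 with the offset. Fam126a encodes hyccin, a partner of a phosphatidylinositol 4-kinase, and Itpr2 an inositol trisphosphate receptor of cardiomyocytes. Nr2c2 is an orphan nuclear receptor and Cnnm4 a magnesium transporter. All 4 were called in both fits, and none over 6 libraries (edgeR adjusted p = 0.379 for each).

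A further 6 of the called genes are named here after their values were seen. Pdlim5, a Z-disc scaffold, was at 126, 120 and 30.9 CPM in siNC and 187, 233 and 265 CPM in siJmjd4. Nebl, the gene of nebulette, was at 11.9, 7.52 and 1.15 CPM and 21.1, 23.3 and 26.2 CPM. In both genes siNC replicate 3 was the lowest by far. Dnm1l, the gene of the mitochondrial fission enzyme DRP1, was at 30.5, 30.8 and 5.53 CPM in siNC and 46.9, 49.5 and 60.6 CPM in siJmjd4. Pdpk1, the kinase that activates AKT, and Phlpp2, a phosphatase that acts on AKT, had log2 fold changes of 1.20 and 1.07 without siNC replicate 3. None was called over 6 libraries (edgeR adjusted p = 0.379 for each). Agfg2 was the gene of this set whose controls agreed most closely, at 19.8, 19.1 and 17.9 CPM against 34.1, 30.6 and 30.7 CPM. It rose by 0.71 on the log2 scale (edgeR adjusted p = 0.0386). All 6 were also called with the offset, with log2 fold changes of 0.69, 0.82, 0.69, 0.80, 0.60 and 0.72 for Pdlim5, Nebl, Dnm1l, Pdpk1, Phlpp2 and Agfg2.

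Of the 13 genes called lower, 9 carry names of genomic clones and moved closely alike. Of them, 6 share the prefix AABR07015 and the others the prefix AABR07063, and their log2 fold changes without siNC replicate 3 lay between -0.86 and -1.05. AABR07015078.1 was the most abundant, at 130, 140 and 205 CPM in siNC and 73.5, 61.3 and 67.5 CPM in siJmjd4 (edgeR adjusted p = 0.00428). In AABR07063424.1 the levels were 45.8, 47.2 and 68.9 CPM and 24.9, 21.1 and 21.6 CPM (edgeR adjusted p = 0.00554). All 9 separated the groups over 6 libraries, with siNC replicate 3 the highest library in each. The files do not say what these loci encode, and loci of like sequence can share reads, so they are not 9 independent observations. LOC108351137, a predicted gene, was at 404, 416 and 405 CPM in siNC and 316, 283 and 301 CPM in siJmjd4, a fall of 0.45 on the log2 scale without siNC replicate 3 (edgeR adjusted p = 0.0409). Over 6 libraries AABR07015078.1, AABR07063424.1 and LOC108351137 were not called (adjusted p = 0.379 for each).

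Genes of the contractile apparatus were mostly lower in siJmjd4, by small amounts. Of 26 tested sarcomere and Z-disc genes 20 had a negative log2 fold change, with a median of -0.48 over 6 libraries, -0.26 without siNC replicate 3 and -0.29 with the offset. None was called over 6 libraries or without siNC replicate 3, where 14 were lower at an unadjusted p under 0.05 (8.09% of all genes were). When siJmjd4 replicate 1 was left out with siNC replicate 3, without a length offset, 18 of the 26 were called lower, beside 5.18% of all genes. In that fit 15 of the 21 tested cardiomyocyte markers were called lower as well. Tnnt2, cardiac troponin T, was at 1982, 1988 and 5046 CPM in siNC and 1808, 1491 and 1519 CPM in siJmjd4. Among the controls, siNC replicate 3 was far above the others, and the log2 fold change went from -0.90 to -0.30 without it. Des, the gene of the intermediate filament desmin, was at 938, 965 and 1280 CPM in siNC and 826, 677 and 696 CPM in siJmjd4, and was called with the offset, where it fell by 0.37 on the log2 scale (edgeR adjusted p = 0.0376). Myl2, the ventricular regulatory light chain, was at 132, 152 and 176 CPM in siNC and 77.3, 101 and 97.9 CPM in siJmjd4. It was not called over 6 libraries or without siNC replicate 3 (edgeR adjusted p = 0.0585 in the latter). Summed cardiomyocyte markers, a list that shares members with this one, were lower too, as given above, and their part in these values was not tested.

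The fetal and stress genes, which include the natriuretic peptides, had a median of -0.23 over 6 libraries and -0.16 without siNC replicate 3, with 0 of 20 called by edgeR in either fit. At an unadjusted p under 0.05 without siNC replicate 3, 2 of them were higher and 6 lower, beside 15.8% and 8.09% of all genes. With siJmjd4 replicate 1 also left out, 2 were called higher and 10 lower, beside 10.6% and 5.18% of all genes. Nppa, atrial natriuretic peptide, was at 5420, 5837 and 9439 CPM in siNC and 5102, 4050 and 4098 CPM in siJmjd4, and the groups did not overlap. Nppb, the related B-type peptide, was at 739, 798 and 645 CPM and 721, 606 and 598 CPM, and the groups did overlap. Neither was called over 6 libraries or without siNC replicate 3 (edgeR adjusted p = 0.112 for Nppa and 0.143 for Nppb in the latter).

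Calcium handling genes and ion channels had a median near that of all genes, 0.09 over 6 libraries, 0.07 without siNC replicate 3 and -0.04 with the offset. Of the 28, 1 was called, without siNC replicate 3 (beside 0.487% of all genes called higher). Slc8a1, the sodium-calcium exchanger NCX1, was at 86.5, 71.4 and 12.6 CPM in siNC and 121, 144 and 156 CPM in siJmjd4. It was called higher without siNC replicate 3 (log2 fold change 0.83, edgeR adjusted p = 0.0489) but not over 6 libraries (1.304, adjusted p = 0.379) or with the length offset (0.10, adjusted p = 0.520), and its transcript is among the longest used here, at 18464 bases. Ryr2, the calcium release channel, followed the same course, with 147, 108 and 30.0 CPM in siNC and 185, 200 and 229 CPM in siJmjd4. It was not called (edgeR adjusted p = 0.0760 without siNC replicate 3), and its log2 fold change was 0.68 without and -0.01 with the offset. Atp2a2, the calcium pump SERCA2, was at 1251, 1217 and 946 CPM and 1346, 1274 and 1250 CPM, and its groups overlapped.

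TGF-beta and BMP signalling genes were the list with the highest median without siNC replicate 3, 0.27 over 28 genes, with 0.46 over 6 libraries and 0.15 with the offset. Of these, 2 were called higher without siNC replicate 3, both receptors, beside 0.487% of all genes, and none over 6 libraries (edgeR adjusted p = 0.379 for both). Bmpr1a, a type I BMP receptor, was at 45.0, 38.8 and 18.8 CPM in siNC and 61.6, 70.9 and 74.6 CPM in siJmjd4, and rose by 0.72 on the log2 scale (edgeR adjusted p = 0.0371) and by 0.43 with the offset (adjusted p = 0.0315). Tgfbr2, the type II TGF-beta receptor, was at 55.2, 53.8 and 16.1 CPM and 70.3, 80.1 and 84.5 CPM, and its log2 fold change of 0.52 (edgeR adjusted p = 0.0491) became 0.05 with the offset (adjusted p = 0.714). With the offset 3 members were called higher and 1 lower, beside 1.78% and 2.39% of all genes. Smad4, the common partner of the signalling SMADs, was among the higher ones, at 33.3, 27.3 and 7.57 CPM in siNC and 40.7, 46.3 and 53.5 CPM in siJmjd4 (log2 fold change 0.62 with the offset, edgeR adjusted p = 0.0382). Smad2, which transmits the TGF-beta signal, was the lower one, at 46.0, 44.0 and 38.1 CPM and 44.8, 50.7 and 52.2 CPM. Its log2 fold change was 0.13 without and -0.34 with the offset, so the offset sets its direction. Extracellular matrix genes, 35 tested, had a median of 0.21 over 6 libraries, 0.12 without siNC replicate 3 and -0.12 with the offset, and no direction is given for them. When siJmjd4 replicate 1 was left out with siNC replicate 3, 10 of the 35 were called higher and 2 lower, beside 10.6% and 5.18% of all genes. In that fit 10 of 27 tested TGF-beta and BMP genes were called higher and 2 lower.

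Respiratory chain, fatty acid oxidation and glycolysis genes lay below the median of all genes, while 2 other lists of energy metabolism had medians whose sign depended on the fit. The 71 tested nuclear subunits of the respiratory chain and ATP synthase stood at a median of -0.71 on the log2 scale over 6 libraries, with 68 below 0. The median was -0.25 without siNC replicate 3 and -0.11 over the 56 with a length once the offset was used. None was called in these fits, and 5, 30 and 8 were lower at an unadjusted p under 0.05, beside 2.92%, 8.09% and 13.3% of all genes. When siJmjd4 replicate 1 was left out with siNC replicate 3, 47 of the 71 were called lower, beside 5.18% of all genes. These genes are short, with a median transcript length of 977 bases. Fatty acid uptake and oxidation genes had medians of -0.28, -0.20 and -0.16 in the same 3 fits, and 3 of 30 were called lower with the offset, beside 2.39% of all genes. Hadha and Hadhb, the subunits of the mitochondrial trifunctional protein, fell by 0.33 and 0.34 on the log2 scale there (edgeR adjusted p = 0.0378 and 0.0357). Hadhb had the narrower controls, at 219, 219 and 201 CPM in siNC against 195, 192 and 181 CPM in siJmjd4. The last was Ucp2, an uncoupling protein, at 193, 197 and 489 CPM and 173, 152 and 144 CPM. Glycolysis genes, among which Pkm is counted, had medians of -0.31, -0.16 and -0.13. Slc16a3, the lactate exporter MCT4, was their 1 call in these 3 fits, lower with the offset, beside 2.39% of all genes. It was at 68.2, 82.3 and 149 CPM in siNC and 60.5, 54.8 and 65.0 CPM in siJmjd4. When siJmjd4 replicate 1 was left out with siNC replicate 3, 6 of the 26 were called lower, beside 5.18% of all genes. In that fit 8 of 30 fatty acid genes were called lower and 1 higher. Of 29 pyruvate oxidation and TCA cycle genes, 9 were called lower and 1 higher there, beside 10.6% of all genes called higher. Pyruvate oxidation and TCA cycle genes had medians of -0.06, -0.10 and -0.05 in the 3 fits, and 0.06 over 6 libraries with the offset, so their sign was not kept. Regulators of mitochondrial genes had medians of -0.04, -0.03 and -0.05 in the 3 fits and 0.13 over 6 libraries with the offset.

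Ribosomal protein genes were nearly all lower in siJmjd4, as the shortest genes mostly were, by amounts that depended on siNC replicate 3. All 70 tested had a log2 fold change below 0 over 6 libraries, with a median of -0.68, and 3 were lower at an unadjusted p under 0.05. Without siNC replicate 3 the median was -0.21 and 53 were lower at that p. With the offset the median was -0.06, 12 were lower at that p, beside 2.92%, 8.09% and 13.3% of all genes in the 3 fits, and Rpl18, Rps20 and Rps24 were called, beside 2.39% of all genes called lower. Rps24 was at 587, 563 and 588 CPM in siNC and 503, 473 and 477 CPM in siJmjd4, and fell by 0.33 on the log2 scale with the offset (edgeR adjusted p = 0.0317). The median transcript length of the ribosomal list was 1109 bases. The shortest 10% of all genes had medians of -0.57, -0.19 and -0.03 in the 3 fits. When siJmjd4 replicate 1 was left out with siNC replicate 3, 45 of the 70 were called lower, beside 5.18% of all genes. In siNC replicate 3 the ribosomal list summed to 114035 CPM, against 43749 to 54095 CPM in every other library. Genes of the ubiquitin-proteasome list had medians of -0.41, -0.16 and -0.04, and heat shock and chaperone genes of -0.25, -0.16 and -0.13. The medians over all genes were 0.01, 0.00 and -0.04. No member of either list was called in these 3 fits. Their unadjusted counts without siNC replicate 3 were 15 of 38 lower and 12 of 27 lower, beside 8.09% of all genes. With the offset they were 3 of 38 and 10 of 27, beside 13.3%. With siNC replicate 3 and siJmjd4 replicate 1 left out, 7 of 38 and 11 of 27 were called lower, beside 5.18% of all genes. Of the 38, 1 was called higher in that fit, beside 10.6% of all genes.

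Genes that respond to interferon showed no direction that held across the libraries. Their 34 tested members had a median of -0.25 over 6 libraries and -0.34 without siNC replicate 3, the lowest of all lists there, but edgeR called 0 and none passed an unadjusted p of 0.05 in either fit. The list summed to 545, 945 and 889 CPM in siNC and 567, 625 and 780 CPM in siJmjd4, so the controls alone spanned the range of the siJmjd4 libraries. The direction rested on siNC replicate 2, since without that library the median was 0.23, and 0.33 with siNC replicate 3 also left out. Tlr3, a receptor for double-stranded RNA, was at 5.56, 7.53 and 4.61 CPM in siNC and 10.59, 11.54 and 12.02 CPM in siJmjd4. The groups did not overlap, and it was not called (edgeR adjusted p = 0.0610 without siNC replicate 3 and 0.0543 with the offset). The 22 genes of RNA interference and double-stranded RNA sensing had a median of 0.25 over 6 libraries, 0.25 without siNC replicate 3 and -0.06 with the offset. When siJmjd4 replicate 1 was left out with siNC replicate 3, 6 of the 22 were called higher and 1 lower, beside 10.6% and 5.18% of all genes.

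Cell cycle genes had medians of 0.15 over 6 libraries, 0.00 without siNC replicate 3 and -0.11 with the offset. Of 32 genes 0, 1 and 1 were called in these 3 fits, both calls higher, beside 0.00645%, 0.487% and 1.78% of all genes called higher. When siJmjd4 replicate 1 was left out with siNC replicate 3, 2 were called higher and 2 lower, beside 10.6% and 5.18% of all genes. Anln, the gene of the cytokinesis scaffold anillin, was at 57.9, 47.4 and 8.21 CPM in siNC and 81.3, 86.3 and 88.2 CPM in siJmjd4. It rose by 0.69 on the log2 scale without siNC replicate 3 (edgeR adjusted p = 0.0359) and by 0.54 with the offset (adjusted p = 0.0253). Over 6 libraries its log2 fold change of 1.17 was not called (edgeR adjusted p = 0.379). Among the 30 DNA replication genes 0 were called over 6 libraries or without siNC replicate 3. At an unadjusted p under 0.05 there were 1 and 5, beside 8.71% and 23.9% of all genes. With the offset 2 were called higher, beside 1.78% of all genes, and with siNC replicate 3 and siJmjd4 replicate 1 left out 2 were called higher and 2 lower. Rrm2 and Lig1 were the calls with the offset. Rrm2, a subunit of ribonucleotide reductase, was at 58.3, 58.6 and 9.67 CPM and 77.7, 73.4 and 67.7 CPM. Lig1, DNA ligase 1, was at 23.9, 23.7 and 78.1 CPM and 31.3, 38.4 and 41.7 CPM, so with siNC replicate 3 included its groups overlapped.

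The same rule of size, overlap and counts was applied to the calls with the offset. Beyond the genes above, the largest increases included Lrrc58 and Vps13a, the gene of a lipid transfer protein at membrane contacts. Vps13a was at 2.36, 2.49 and 1.44 CPM in siNC and 6.89, 10.3 and 16.6 CPM in siJmjd4, and its level was 2.97-fold higher with the offset (edgeR adjusted p = 0.0269). Tet3 and Smg1, also called higher with the offset, were not among the 12 largest increases and were named after their values were seen. Tet3, which oxidises 5-methylcytosine and is itself a 2-oxoglutarate oxygenase, was at 12.2, 9.83 and 4.81 CPM and 20.1, 33.9 and 45.1 CPM (log2 fold change 0.96, edgeR adjusted p = 0.0378). Smg1, a kinase of nonsense-mediated decay, was at 30.3, 22.4 and 16.9 CPM and 42.9, 65.6 and 88.1 CPM (log2 fold change 0.59, edgeR adjusted p = 0.0407). It was the 1 call with the offset among the 20 translation termination genes, beside 1.78% of all genes called higher. In these 3 genes the siJmjd4 libraries differed among themselves by over 2-fold between replicates 1 and 3. The larger decreases included Myh7b, a myosin heavy chain of muscle, at 38.1, 35.3 and 62.2 CPM in siNC and 30.8, 26.7 and 24.0 CPM in siJmjd4 (1.66-fold lower with the offset, edgeR adjusted p = 0.0355). Its groups did not overlap over 6 libraries, which the rule required.

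**Figure D5:**
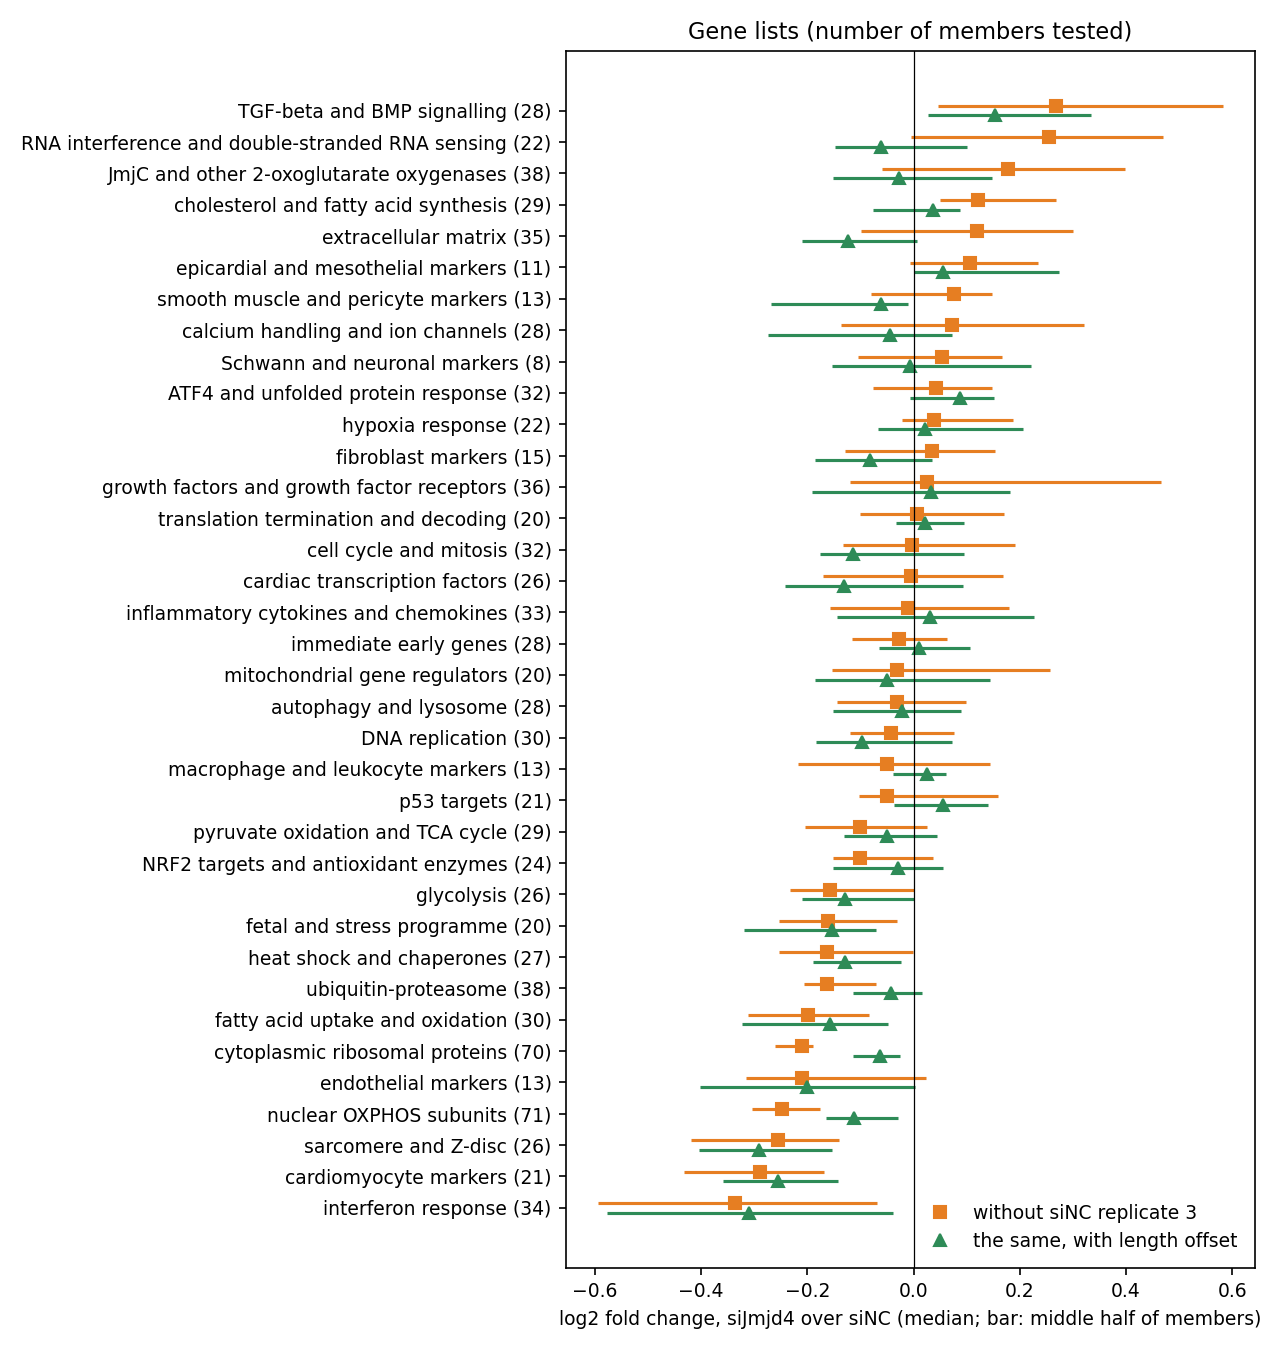
Median log2 fold change of siJmjd4 over siNC (horizontal axis) of each gene list without siNC replicate 3 (squares) and with the length offset as well (triangles), with bars from the lower to the upper quartile of the members, and the number tested in brackets. The red cell list is not drawn. Cardiomyocyte markers and sarcomere genes keep medians from -0.29 to -0.26 in both fits, while the extracellular matrix median changes from 0.12 to -0.12.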

How the data were processed

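Per the labels, total RNA was taken with TRIzol and sequenced from standard Illumina libraries. The authors deposited whole-number counts per gene symbol, not normalized. The submitters' processing notes name HISAT2 2.1.0, StringTie 1.3.4, edgeR 3.20.9 and the builds rn6 and mm10, without roles. For kit, strand setting, annotation and counting rules, the sources used here give nothing. No rat positions or sequences were used here.

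Columns were matched to samples by name. Counts were fitted with edgeR 4.0.16 (R 4.3.3): filterByExpr, TMM scaling, a robust quasi-likelihood model with group as its only term, two-sided, Benjamini-Hochberg adjustment over all genes tested, called under 0.05. CPM uses TMM-scaled totals of all 6 libraries. SE comes from the F statistic, and intervals are at 95%. Over 6 libraries 15497 genes were tested. The smallest p of an exact permutation test with 3 against 3 is 0.1, and none was made. The length offset is a smooth (span 0.3) of each library's log2 ratio on the log2 length of the longest GENCODE M21 mouse transcript of the same symbol. Of tested genes, 82.8% had a length. DESeq2 1.42.0 and limma 3.58.1 voom were alternatives. The code was tested on simulated counts. Between replicates, chi-square over its degrees of freedom was 26.5 to 594, so none was a duplicate.

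The 37 gene lists (8 of cell types), the members and the tests were chosen with earlier results of these data known. The rule for named genes took Jmjd4 and Pkm, then the 12 highest and 12 lowest fold changes called in both fits (without overlap, without a library at 0, a mean of at least 1 CPM, no predicted name), up to 4 members per list called in both, and the 6 genes at 0 and high with the smallest p. The parts on calls in both fits took 0 genes, so they were applied without siNC replicate 3 alone, a choice made after seeing the data. Others are named after their values were seen. A fold against a group at 0 uses a floor of 3 counts per library.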

Additional observations from a re-analysis of the deposited data

How the results depend on the processing

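Over all 6 libraries edgeR called 1 gene (1 higher, 0 lower). The count was the same with DESeq2's size factors, total counts alone, a mean of at least 5 CPM, no filter, or a log2 fold change of at least 1. DESeq2's Wald test called 168 (136 higher, 32 lower) and limma voom 1148 (974 and 174). EdgeR called 0 when genes at 0 in any library were left out (1436 at an unadjusted p under 0.05) and 0 with the length offset (1304). With the replicate block it called 0 (472 at an unadjusted p). Same-numbered libraries deviated together by correlations of -0.27, 0.00 and -0.27. These deviations also hold each library's length trend, so they cannot show whether the numbers pair the libraries, which the labels do not state. Leaving out 1 library gave 0 to 90 calls (0 to 77 higher, 0 to 13 lower), namely 4 and 2 without siNC replicate 1 or 2, 90 without siNC replicate 3, and 0 without siJmjd4 replicate 1, 2 or 3 (834, 423 and 339 at an unadjusted p). There were 2470 (1661 and 809) with siNC replicate 3 and siJmjd4 replicate 1 both out. The cause of these changes was not tested.

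Without siNC replicate 3, where 90 genes (77 higher, 13 lower) were called, the alternatives were chosen after seeing the data. The counts were 55 (42 higher) with DESeq2's size factors, 325 (296 and 29) with total counts alone, 2122 (1538 and 584) with DESeq2, 1341 (1042 and 299) with voom, and 543 (232 and 311) with the length offset. They were 552 (502 and 50) with no filter, 141 (128 higher) with a mean of at least 5 CPM, 319 (271 and 48) without genes at 0, 44 (39 and 5) with a log2 fold change of at least 1, and 43 (29 higher) with the replicate block. A further library left out gave 20 to 2470 calls (10 to 1661 higher, 10 to 809 lower), namely 49 and 52 without siNC replicate 1 or 2 and 2470, 20 and 84 without siJmjd4 replicate 1, 2 or 3. A control group left with 1 library is assumed to vary like the siJmjd4 group.

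Among genes taken by the naming rule, signs turned for 3, none of them called. Of the others named, the length offset turned at least Myh9 (0.32 to -0.10 without siNC replicate 3), Snap47 (-0.09 to 0.02 there) and Etf1 (0.13 to -0.03 over 6 libraries), and the signs of Smad2 and Ryr2 as given above. The log2 fold change of Jmjd4, 0.25 over 6 libraries, was -0.17 with voom, -0.20 with siNC replicate 3 and siJmjd4 replicate 1 both out, and -0.16 to 0.66 with 1 library out, lowest without siNC replicate 3. With siNC replicate 3 and a further library out it was -0.31 to 0.012, highest without siNC replicate 2. RGD1305298, at -7.67, was -8.78 to 0.54 with 1 library out, highest without siNC replicate 3. From there it was -0.38 with voom and -0.43 to 6.15 with a further library out, lowest without siNC replicate 1. Tmco3, at -3.44, was 0.41 with voom, 1.89 with the block, -4.06 to 7.02 with 1 library out, and -5.06 to 7.09 with siNC replicate 3 and a further library out, highest both times without siNC replicate 1.

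Among list medians, 1068 values under alternatives moved by less than the members' typical SE and 40 by more. For low genes such as Jmjd4, near 1 to 4 CPM, precision is limited by the number of libraries as well as by depth.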
